A study of Mus musculus with 4 samples.

Results

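The genes described here carry glucose to lactate or to the mitochondrion and include the oxygen-sensing pathway that acts on them. They are 32 genes chosen by name as glycolysis, lactate and HIF genes, and all 32 were found among the 49671 genes of the deposited tables. RNA came from column-enriched CD3+ T cells of the spleens of female mice, in 4 samples labelled as biological replicates that form 1 group. The mice were F1 hybrids with a Mus musculus castaneus father and a C57BL/6 mother heterozygous for a deletion of Xist, the RNA that silences the X it is made from. For 48 hours the cells were stimulated through the T cell receptor and its costimulator, with anti-CD3 bound to the plate (1 µg/ml) and anti-CD28 in solution (10 µg/ml), and were given 2.5 µM IMD-0354, an inhibitor of the kinase IKKβ that activates NF-κB. The 4 samples include neither resting cells nor cells stimulated without IMD-0354, so no effect of stimulation or inhibition was tested.

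Glycolysis splits glucose into pyruvate in the cytoplasm. Pyruvate is then reduced to lactate and exported, or enters the mitochondrion through the pyruvate dehydrogenase complex. Activated T cells are known for raising glucose uptake and lactate output. HIF-1α, the oxygen-regulated subunit of the transcription factor HIF-1, binds the core letters ACGTG or GCGTG at many of these genes, and in the presence of oxygen it is hydroxylated by EGLN enzymes and destroyed through VHL.

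The libraries held 30539711 to 34992012 reads that could be assigned to an allele. T cell markers were present throughout (7 of 7 at 1 RPKM or more, summed 369.8 to 403.2 RPKM, where RPKM, computed by the authors, is a read number scaled for gene length and library size). Summed B cell markers were at 4.36 to 9.98 RPKM, NK markers at 0.0521 to 0.231, erythroid markers at 1.36 to 7.12, platelet markers at 1.95 to 2.39 and endothelial markers at 2.93 to 3.82, with Cdh5 listed at 0. Summed myeloid markers were at 35.8 to 93.2 RPKM, mostly Lyz2 with 18.8 to 74.4. In such bulk samples, fewer cells of a type and less RNA per cell cannot be told apart.

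The core letters of HIF binding were frequent upstream of these genes. In the 250 bases before each annotated start (RefSeq, GRCm38.p6), searched on both strands with overlapping matches counted, ACGTG or GCGTG lay in 35 of 45 windows, against 38.6% of 32851 windows of all genes. Counted by gene, 27 of the 31 members with a window had the letters in at least 1 of them, against 41.5% of all gene symbols. The member windows also held more CG pairs, which both motifs contain (median 14 against 6), and a higher GC content (61.6% against 52.4%), and the part of this in the motif count was not tested. The NF-κB consensus was found in 0 of the 45 windows and in 3.90% of all windows. A match is a string of letters and not a measured binding site. The windows of Ldha, Ldhb, Pgk1 and Hif1a are shown because they contrast the leading and the minor lactate dehydrogenase gene, the X-linked member and the HIF subunit itself. Capitals mark ACGTG or GCGTG on either strand, written CACGT or CACGC when read from the other strand, and CACGTG is also the E-box known to be bound by MYC.
Ldha, plus strand, chr7:46845554-46845803: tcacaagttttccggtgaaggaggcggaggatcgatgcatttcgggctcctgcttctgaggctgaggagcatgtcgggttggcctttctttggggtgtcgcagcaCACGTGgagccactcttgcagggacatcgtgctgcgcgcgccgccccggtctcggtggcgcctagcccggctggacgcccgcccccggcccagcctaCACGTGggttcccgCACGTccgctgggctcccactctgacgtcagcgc
Ldhb, minus strand, chr6:142507958-142508207: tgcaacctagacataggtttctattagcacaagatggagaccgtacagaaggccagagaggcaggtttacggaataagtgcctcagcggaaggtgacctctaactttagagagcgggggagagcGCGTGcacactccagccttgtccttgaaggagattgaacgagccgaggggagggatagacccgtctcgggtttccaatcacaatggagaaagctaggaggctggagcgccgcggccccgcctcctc
Pgk1, plus strand, chrX:106186850-106187099: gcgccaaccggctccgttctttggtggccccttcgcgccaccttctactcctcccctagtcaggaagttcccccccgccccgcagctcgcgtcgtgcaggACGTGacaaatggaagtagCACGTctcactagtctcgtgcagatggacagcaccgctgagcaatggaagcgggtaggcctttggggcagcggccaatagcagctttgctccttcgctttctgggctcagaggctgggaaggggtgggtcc
Hif1a, plus strand, chr12:73907617-73907866: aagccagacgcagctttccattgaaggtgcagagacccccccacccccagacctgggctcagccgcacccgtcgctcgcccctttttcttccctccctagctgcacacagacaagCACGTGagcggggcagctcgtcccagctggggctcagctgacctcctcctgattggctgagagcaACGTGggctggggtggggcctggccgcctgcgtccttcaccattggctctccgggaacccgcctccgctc
The Ldha window before its first RefSeq start held 5 matches, with each CACGTG counted on both strands, and the Ldhb window 1. A second Ldha window, not shown, at chr7:46846832-46847081 also held 1. Pgk1 held 2 and Hif1a 3.

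All 32 members were detected at a mean of 1 RPKM or more, from Bnip3 with 1.03 ± 0.318 RPKM to Aldoa with 110.1 ± 14.3 RPKM (SD, n = 4). Their median was 7.82 RPKM, against 6.72 RPKM over the 11453 genes at 1 RPKM or more, and 17 members lay above that median. Only Aldoa, Hif1a, Gapdh, Gpi1 and Pgk1 were in the top decile of those genes. Ordered by mean, 28 of 31 pairs of neighbours had overlapping ranges over the replicates, so their order is not separated by the replicate spread. The 3 that did not overlap were Gapdh above Gpi1, Pfkfb3 above Eno3 and Pfkfb4 above Ldhb.

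**Figure D1:**
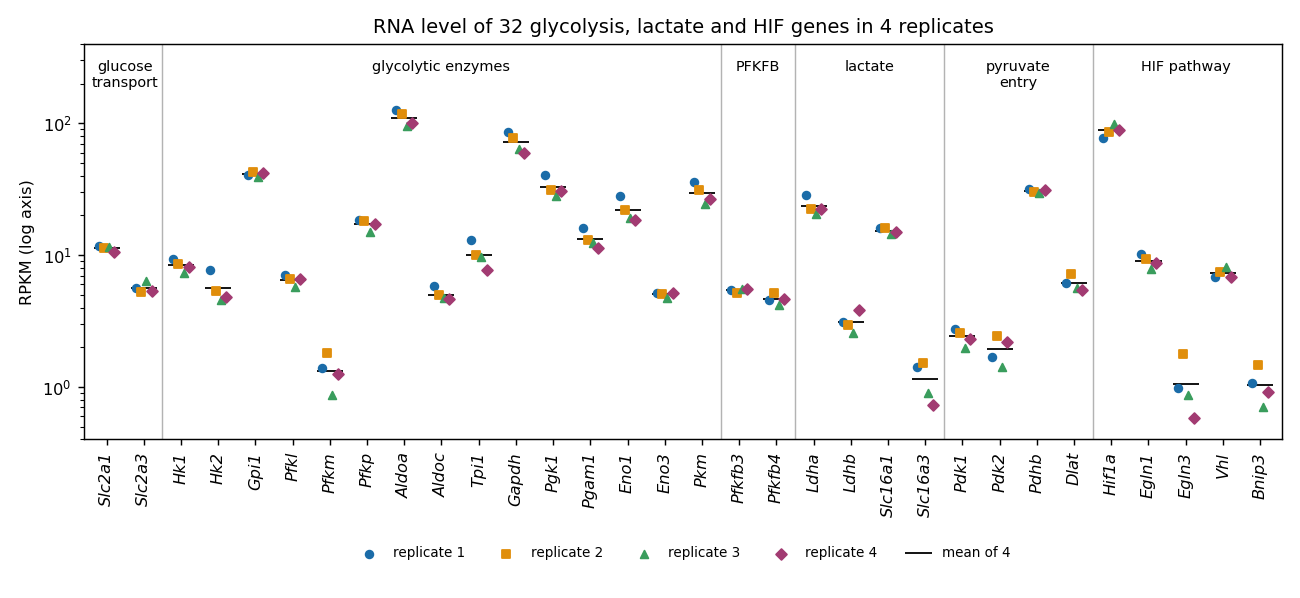
RPKM on a log axis (vertical) of the 32 genes, grouped by role (horizontal). Symbols are the 4 replicates and black lines their means. Aldoa (110.1), Hif1a (88.2) and Gapdh (71.7) stand highest and Bnip3 (1.03) and Egln3 (1.06) lowest.

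Glucose enters T cells through GLUT1, encoded by Slc2a1, and GLUT3, encoded by Slc2a3. Slc2a1 had 11.8, 11.3, 11.5 and 10.6 RPKM in replicates 1 to 4. Slc2a3 had 5.65, 5.22, 6.36 and 5.37. Slc2a1 was higher in each replicate, by 1.81 to 2.17 times, and the ranges did not overlap. Whether a leading gene exceeded the next of its step was tested at 10 steps with an exact two-sided sign-flip permutation test over the 4 replicates. The leading gene was higher in 4 of 4 replicates at all 10 steps, and this exact test then gives p = 0.13, raw and Benjamini-Hochberg adjusted, the smallest it can give. The leading gene was picked by its mean over these same 4 replicates, so the test gives no independent support for its lead. None of the 10 steps could pass 0.05, so the ranges are given as well.

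Hexokinase traps glucose in the cell as its phosphate. Hk1, the widely expressed form, had 9.32, 8.61, 7.34 and 8.13 RPKM in replicates 1 to 4. Hk2, the form known to be induced with growth signals and hypoxia, had 7.75, 5.35, 4.57 and 4.84. Hk1 took 60.1% ± 3.74 of the sum of both (SD, n = 4), with the smallest lead in replicate 1 (1.20 times), and the ranges of both genes overlapped. Hk3, a hexokinase known from myeloid cells and outside the list, had 3.36, 6.94, 1.53 and 1.11 RPKM. The 4 myeloid markers summed to 56.2, 93.2, 43.7 and 35.8 RPKM, most of it Lyz2 with 44.7, 74.4, 27.2 and 18.8. This sum had the same order over the replicates as Hk3, but not every marker did: Cd68 was lowest in replicate 1 and Csf1r highest there. The part of myeloid cells in the Hk3 level was not tested.

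Gpi1, which turns glucose phosphate into fructose phosphate, was among the steadiest members with 40.2, 43.0, 39.0 and 42.2 RPKM in replicates 1 to 4. Phosphofructokinase then makes the committed step. Pfkp, the platelet-type gene, led with 18.6, 18.2, 15.1 and 17.3 RPKM, and Pfkl, the liver type, followed with 7.01, 6.64, 5.70 and 6.59. Pfkm, the muscle type, had only 1.39, 1.80, 0.869 and 1.25 RPKM. The share of Pfkp was nearly the same in every replicate, 68.9% ± 0.544 (SD, n = 4), and no ranges overlapped. Pfkp shares 748 exonic bases with Pitrm1 on the opposite strand (18.6 RPKM), and the labels do not say whether counting used strand.

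The bisphosphate that activates phosphofructokinase is made and removed by the PFKFB enzymes. Pfkfb3 had 5.43, 5.19, 5.56 and 5.53 RPKM in replicates 1 to 4. Pfkfb4 had 4.57, 5.17, 4.18 and 4.68. Pfkfb3 led by 1.00 to 1.33 times in the 4 replicates. With 53.9% ± 2.88 for Pfkfb3 this was the most even step of the 10.

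Aldolase cuts the fructose bisphosphate made by phosphofructokinase, which is not the one made by the PFKFB enzymes, into triose phosphates. Aldoa, the muscle-type aldolase also used by most proliferating cells, had 125.6, 118.5, 95.8 and 100.5 RPKM in replicates 1 to 4. Aldoc, the brain type, had 5.81, 4.95, 4.69 and 4.64. Aldoa exceeded Aldoc by 20.4 to 23.9 times, the widest lead at any of the 10 steps.

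The triose phosphate steps have 1 listed gene each. Tpi1, which interconverts the trioses, had 13.0, 10.0, 9.65 and 7.69 RPKM in replicates 1 to 4. Gapdh, which oxidises the triose, had 86.2, 76.8, 64.0 and 60.0, and Pgk1, which makes the first ATP of the pathway, had 40.3, 31.2, 28.2 and 30.9. Pgam1, which moves the phosphate, had 16.0, 12.9, 12.4 and 11.3. All of these were highest in replicate 1. Gapdh has 78 other annotated genes with at least 95% identity over at least 200 bases, mostly processed pseudogenes, so its level depends on how the authors placed shared reads.

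Enolase makes phosphoenolpyruvate. Of the listed genes, Eno1, the ubiquitous form, had 28.3, 22.1, 19.2 and 18.6 RPKM in replicates 1 to 4 and Eno3, the muscle form, had 5.14, 5.11, 4.77 and 5.13. Eno1 took 81.1% ± 2.64 of this pair, and the ranges did not overlap. Eno2, known as the neuronal enolase and outside the list, had 35.0, 38.3, 32.5 and 32.8 RPKM. It was above Eno1 in 4 of 4 replicates with no overlap and took 56.3% ± 3.48 of all 3. Reads of Eno1 are uncertain, because Eno1b and the pseudogene Gm4735 match its transcript at 99.5% and 99.6% identity and were listed at 8.49 RPKM each.

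Pkm, which encodes the pyruvate kinases made by alternative exons and so holds both in 1 row, had 35.6, 31.2, 24.5 and 26.7 RPKM in replicates 1 to 4. Pkm was again highest in replicate 1. It shares 767 exonic bases with Gm49759 on the same strand (3.72 RPKM).

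Lactate dehydrogenase is a tetramer of A and B subunits, of which the A form is known to favour lactate production. Ldha had 28.7, 22.5, 20.6 and 22.5 RPKM in replicates 1 to 4. Ldhb had 3.12, 2.96, 2.56 and 3.83. Ldha exceeded Ldhb by 5.88 to 9.22 times and took 88.2% ± 2.00 of the pair (SD, n = 4). Lactate leaves through MCT1, encoded by Slc16a1, and MCT4, encoded by Slc16a3. Slc16a1 had 16.2, 16.0, 14.4 and 14.9 RPKM. Slc16a3 had 1.42, 1.52, 0.904 and 0.734. Slc16a1 took 93.2% ± 1.86, with no overlap between the pair. Emb and Bsg, outside the list, encode chaperones of lactate transporters and averaged 49.2 ± 2.45 and 33.4 ± 2.96 RPKM.

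Pyruvate entry into the mitochondrion is run by the pyruvate dehydrogenase complex and braked by its kinases. Pdhb, a subunit of the first enzyme of the complex, had 31.8, 30.0, 29.5 and 31.1 RPKM in replicates 1 to 4. Its partner Pdha1, outside the list and X-linked, averaged 25.6 ± 1.31 RPKM. Dlat, the acetyltransferase core, had 6.16, 7.20, 5.58 and 5.42. Dlat was thus below both subunits of the first enzyme in every replicate. Of the kinases, Pdk1 had 2.77, 2.58, 1.97 and 2.33 RPKM and Pdk2 had 1.69, 2.41, 1.41 and 2.21, with overlapping ranges. Pdk3, outside the list, averaged 3.51 ± 0.695 RPKM and led the kinases with 43.3% ± 2.15 of all 4.

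Hif1a was the member with the second highest level, 77.5, 86.5, 99.6 and 89.3 RPKM in replicates 1 to 4. It was lowest in replicate 1, as were 38.4% of the genes at 1 RPKM or more, while most enzyme genes were highest there. The related Epas1, outside the list, averaged 1.37 ± 0.161 RPKM. The oxygen sensor Egln1 had 10.1, 9.35, 7.78 and 8.75 RPKM and Egln3, itself a known HIF target, 0.989, 1.79, 0.867 and 0.583. Egln1 took 89.7% ± 4.15 of this pair, but Egln2, outside the list, averaged 22.2 ± 0.627 RPKM and led with 68.9% ± 2.34 of all 3. Vhl, which tags the hydroxylated subunit for destruction, had 6.84, 7.39, 8.06 and 6.87. The mitophagy receptor gene Bnip3, a known HIF target, had 1.07, 1.45, 0.698 and 0.915. Egln3 and Bnip3 were both highest in replicate 2, as were 42.1% of all genes at 1 RPKM or more. Among the HIF targets examined outside the list, mean levels ran from Car9 with 0.0689 RPKM to Ddit4 with 32.8 RPKM. Ndrg1, Vegfa and P4ha1 of these averaged 19.2, 14.4 and 10.6 RPKM.

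**Figure D2:**
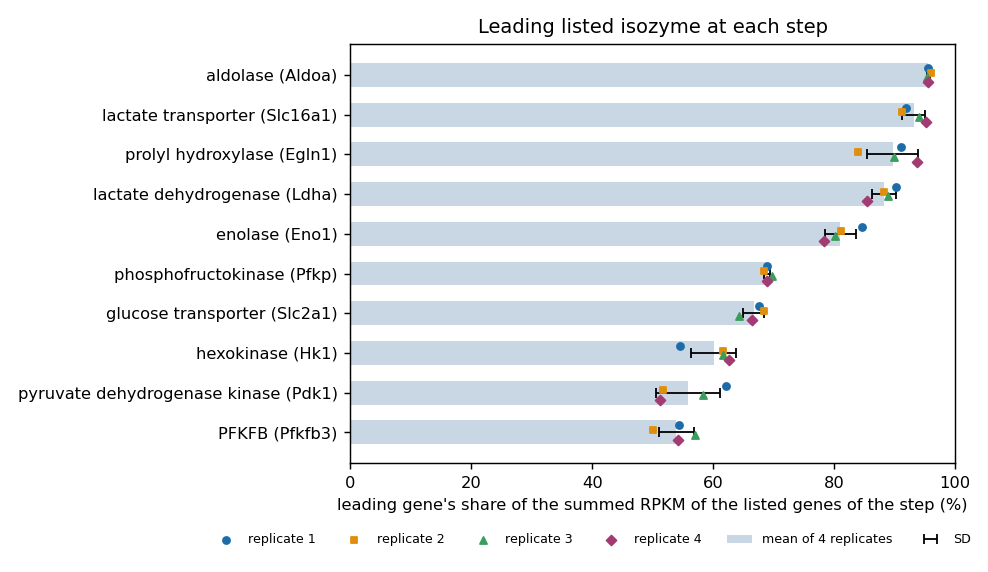
Share of the summed RPKM of the listed genes of a step taken by the leading gene (horizontal, percent) at 10 steps (vertical, leading gene in brackets). Bars are means of 4 replicates, error bars are SD and symbols are replicates. Aldoa takes 95.6% and Pfkfb3 53.9%, and Eno2, Pdk3 and Egln2 are not among the listed genes.

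Most glycolytic enzyme genes were highest in the same replicate. Of the 15 enzyme genes, 13 were highest in replicate 1 and 0 were lowest there, whereas 19.7% of the genes at 1 RPKM or more were highest in replicate 1 and 38.4% were lowest. The level in replicate 1 over the mean of the other three had a median of 1.22 for the enzymes, 1.09 for all 32 members and 0.953 for the genes at 1 RPKM or more. Hk2 (1.58), Tpi1 (1.42), Eno1 (1.42) and Pgk1 (1.34) showed the highest ratios, and Gpi1 (0.971) and Eno3 (1.03) the lowest of the enzymes. Summed, the enzymes came to 440.2, 396.4, 335.8 and 345.7 RPKM in replicates 1 to 4. The summed B cell markers were also highest in replicate 1, with 9.98, 6.23, 4.36 and 4.90 RPKM. The summed T cell markers were highest in replicate 4, with 379.3, 380.4, 369.8 and 403.2 RPKM in replicates 1 to 4. Of those 7 markers Cd4 and Cd3e were highest in replicate 1, and Cd3d, Cd8a and Trac were lowest there. The part of cell composition in this pattern was not tested, and single libraries give no test between replicates. Counted by allelic reads scaled to the autosomal allelic total, 10 of the 15 were highest in replicate 1, with no count of all genes on that scale. Eno2 and Hk3, outside the list, were highest in replicate 2.

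**Figure D3:**
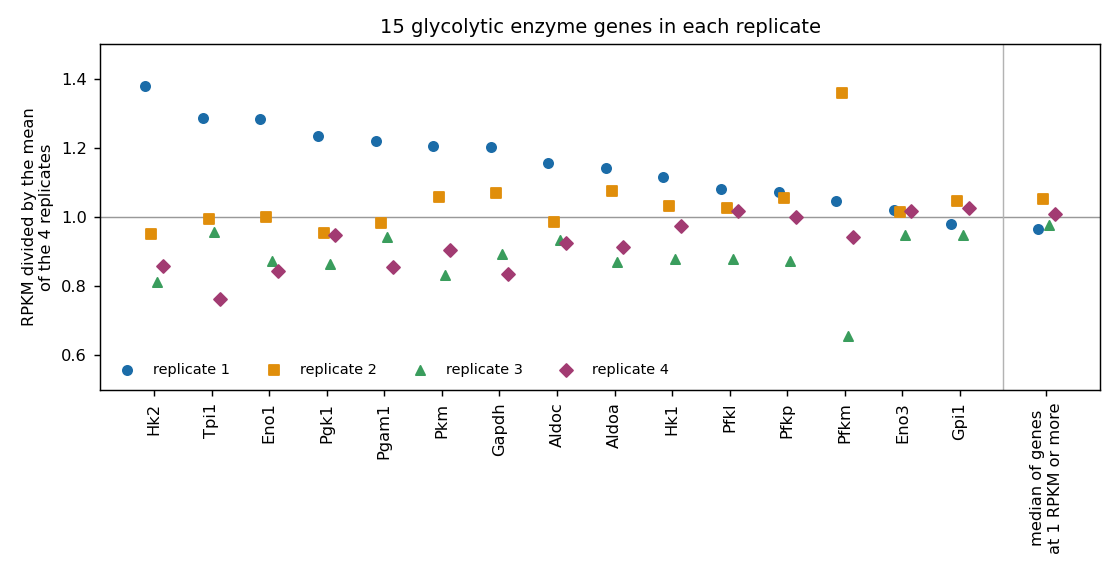
RPKM of 15 glycolytic enzyme genes in each replicate divided by the mean of the 4 replicates (vertical), with genes ordered by their level in replicate 1 over that of the others (horizontal). The right column gives the median of the genes at 1 RPKM or more. Replicate 1 is highest for 13 of the 15 genes and lowest of the 4 in the right column.

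The hybrid cells allow the RNA of each parent's allele to be read apart. The Castaneus allele came from the father and the C57BL/6 allele from the mother in all 4 replicates, so strain and parent of origin cannot be told apart. Of all autosomal allelic reads, 49.6% ± 0.0870 came from Castaneus (SD, n = 4). Some autosomal genes had at least 20 but under 40 allelic reads. Of these, 36.4%, 84.2%, 45.2% and 13.5% were read from 1 allele only in replicates 1 to 4. Reads of thinly covered genes are thus not independent, most of all in replicate 2. A member was tested where it had a mean of at least 20 allelic reads and at least 1 RPKM, which left out Tpi1 with 34 reads in all. Hif1a was thinly read as well, with a mean of 167.2 allelic reads at 88.2 RPKM, or 1.90 reads per RPKM, where Pdk1 had 572.5.

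Of 30 autosomal members tested, 5 were higher from Castaneus, 6 were higher from C57BL/6 and 19 were not called (quasi-likelihood test of edgeR, adjusted by Benjamini-Hochberg over 10268 autosomal genes, FDR of 5%). Over all autosomal genes tested, 12.1% were called higher from Castaneus and 15.1% from C57BL/6, 27.1% in all, so the members' 36.7% is not far above the background. The median absolute log2 ratio was 0.26 for the members and 0.26 for all autosomal genes tested. Without replicate 4 the 11 calls became 7, and the share called over all autosomal genes fell alike, to 18.1%.

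The members higher from Castaneus were Aldoc, Pgam1, Pfkfb4, Pfkfb3 and Pfkp. Aldoc (11:78322968-78327781, mm10) had Castaneus shares of 87.5%, 93.4%, 82.4% and 86.7% in replicates 1 to 4, a log2 ratio of Castaneus to C57BL/6 of 2.89 with a standard error of 0.24 (edgeR's adjusted p = 1.64e-05). Aldoa, the leading aldolase, had 50.0%, 49.7%, 50.0% and 49.4% and was not called (edgeR's adjusted p = 0.869). The minor aldolase gene was thus strongly unbalanced and the major one read almost equally from both alleles, with no overlap in share.

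Pgam1 (19:41911923-41918660) had 71.3%, 73.3%, 72.2% and 75.2% of its reads from Castaneus, a log2 ratio of 1.46 with a standard error of 0.12 (edgeR's adjusted p = 1.59e-05). Its pseudogene Pgam1-ps2, identical over 765 bases, had 0 Castaneus and 108 C57BL/6 reads, against 4373 Castaneus and 1636 C57BL/6 reads of Pgam1, and the part of misplaced reads was not tested. Both PFKFB genes leaned to Castaneus. Pfkfb4 (9:108991778-109032228) had 68.1%, 77.0%, 65.2% and 68.1%, a log2 ratio of 1.23 with a standard error of 0.15 (edgeR's adjusted p = 0.000220). Pfkfb3 (2:11471433-11554077) had 55.9%, 52.4%, 67.6% and 57.4% (log2 ratio 0.52, edgeR's adjusted p = 0.0220), with replicate 3 the highest. Without replicate 3 its log2 ratio was 0.33, and its call was lost without replicate 1, 3 or 4 (edgeR's adjusted p = 0.0703, 0.0757 and 0.0718, with 0.00396 to 0.0757 over the 9 edgeR alternatives and 0.000519 with DESeq2).

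Pfkp (13:6579768-6648777) passed with a small lean, 54.5%, 52.3%, 54.3% and 55.9% from Castaneus (log2 ratio 0.27, edgeR's adjusted p = 0.00523). It rested on a mean of 9688 allelic reads, more than most members. Pfkl had 46.6%, 54.6%, 46.6% and 54.6% and was not called.

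The members higher from C57BL/6 were Gapdh, Pdk1, Eno1, Vhl, Pdhb and Pkm. Gapdh (6:125161715-125166467) had Castaneus shares of 16.0%, 17.9%, 20.2% and 15.8% in replicates 1 to 4, a log2 ratio of -2.22 with a standard error of 0.11 (edgeR's adjusted p = 4.18e-07). Its near copies together had 195 Castaneus and 161 C57BL/6 reads, against 1807 Castaneus and 8612 C57BL/6 reads of Gapdh. The labels do not say how reads matching several genes were placed, and the part of misplaced reads was not tested.

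Pdk1 (2:71873224-71903858), the kinase gene known as a HIF target, had 19.6%, 19.7%, 11.5% and 21.8% from Castaneus, a log2 ratio of -2.17 with a standard error of 0.19 (edgeR's adjusted p = 2.39e-05). Pdk2 had 51.5%, 58.6%, 50.7% and 47.1% and was not called. No copy of Pdk1 met the limits of identity and length, and no other annotated gene shared its exons.

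Eno1 (4:150236721-150248879) had 40.5%, 41.4%, 42.0% and 42.4% of its reads from Castaneus (log2 ratio -0.47, edgeR's adjusted p = 0.000185). Its near copies had 24 Castaneus and 732 C57BL/6 reads, against 13649 Castaneus and 19285 C57BL/6 reads of Eno1. The other enolase that could be read deeply, Eno2, leaned the opposite way with 61.5% ± 3.78 from Castaneus (log2 ratio 0.70, edgeR's adjusted p = 0.000333).

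The other three leaned by less. Vhl (6:113623959-113631633) had 44.8%, 38.5%, 44.3% and 41.8% (log2 ratio -0.42, edgeR's adjusted p = 0.0185). Pdhb (14:8165996-8173025) had 40.2%, 44.3%, 44.0% and 41.7% (log2 ratio -0.41, edgeR's adjusted p = 0.00929), and its pseudogene Gm6123 had 208 Castaneus and 0 C57BL/6 reads. Pkm (9:59656368-59679375) had 46.9%, 46.1%, 42.7% and 47.3% (log2 ratio -0.22, edgeR's adjusted p = 0.0382). The pseudogene Gm6560 matches the Pkm transcript at 98.4% identity and had 0 reads from either allele. Gm49759, which shares exonic bases with Pkm, had a mean of 644.25 allelic reads, against 6229.5 of Pkm. The part of misplaced reads was not tested. The 3 calls of Vhl, Pdhb and Pkm depended on settings. That of Vhl was lost without replicate 4 (edgeR's adjusted p = 0.0964, with 0.0169 to 0.0964 over the 9 edgeR alternatives and 0.00238 with DESeq2) and that of Pdhb without replicate 1 or 4 (edgeR's adjusted p = 0.0586 and 0.0708, with 0.00436 to 0.0708 over those 9 and 0.000280 with DESeq2). That of Pkm was lost without replicate 1, 3 or 4, with TMM factors and without the replicate block (edgeR's adjusted p = 0.0881, 0.175, 0.0734, 0.0927 and 0.346, with 0.0354 as the lowest of those 9, and 0.0198 with DESeq2).

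Among the members not called, Ldha had 47.9%, 46.6%, 49.0% and 46.9% from Castaneus, and Gpi1 had 48.7%, 44.2%, 47.9% and 47.0% (edgeR's adjusted p = 0.226 and 0.0607). Both were slightly below the 49.6% of all autosomal allelic reads in every replicate, without passing. The pseudogene Gm1840 matches the Gpi1 transcript at 98.7% identity and was listed at 4.78 RPKM, with 0 reads from either allele. Hk1, with 53.1% ± 1.54, and Hk2, with 45.4% ± 2.91, leaned in opposite directions without passing (edgeR's adjusted p = 0.0708 and 0.0940). Hk1 passed with TMM factors (edgeR's adjusted p = 0.0314, with 0.0314 to 0.315 over the 9 edgeR alternatives) and with DESeq2 (Wald test, adjusted p = 0.00212), and Hk2 passed without replicate 2 (edgeR's adjusted p = 0.0268, with 0.0268 to 0.460 over the 9 edgeR alternatives and 0.0931 with DESeq2). Slc2a1, Slc2a3, Slc16a1, Slc16a3, Pfkl, Pdk2, Dlat and Egln1 had mean shares of 49.4% to 52.0%. Their single replicates ran from 41.1% in Dlat to 58.6% in Pdk2. Ldhb (34.2% ± 15.2), Eno3 (54.6% ± 17.6), Bnip3 (50.3% ± 19.4) and Hif1a (42.9% ± 11.1) had 124 to 206.5 allelic reads per replicate on average and varied widely between replicates. In Ldhb the shares ran from 12.3% to 46.8%. Pfkm (44.1% ± 2.61) was as thinly read, with a mean of 176.5 allelic reads, and Egln3 (40.6% ± 5.51) nearly so, with 210.5. Both varied less between replicates. For these 6, as for every member not called, the lack of a call does not show an equal share.

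**Figure D4:**
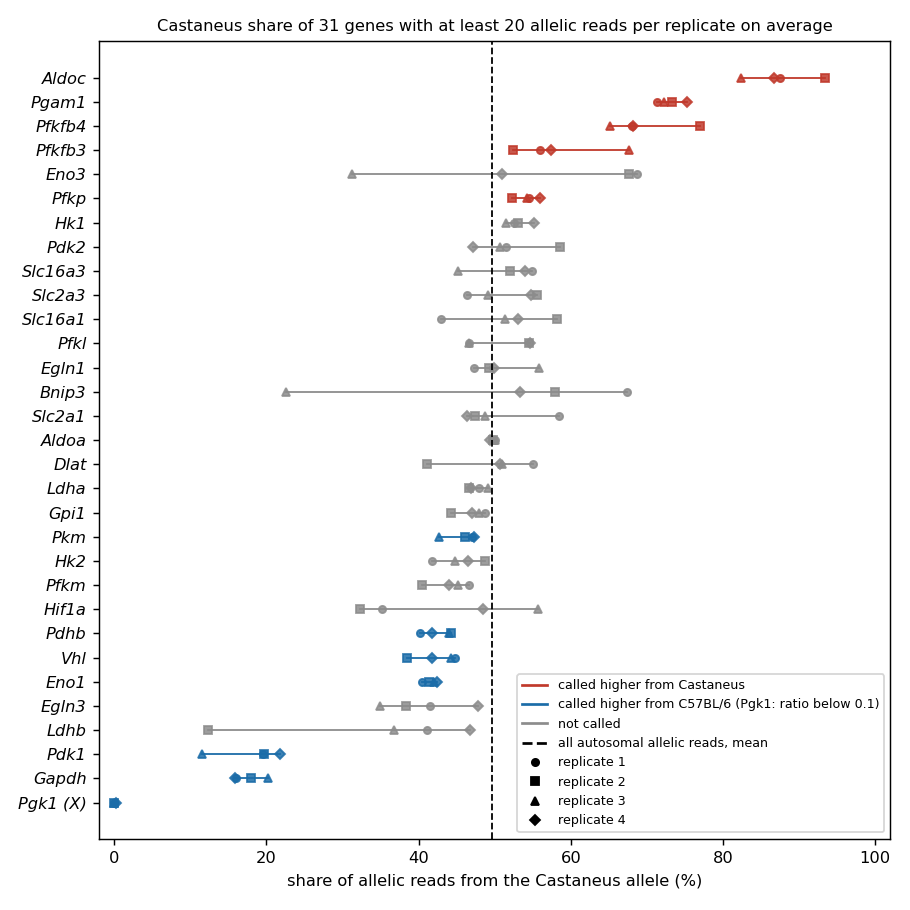
Share of allelic reads from the Castaneus allele (horizontal, percent) for the 31 members with at least 20 allelic reads per replicate on average (vertical). Symbols are the 4 replicates, lines span them, colours give the call and the dashed line is the 49.6% of all autosomal allelic reads. Aldoc (87.5%), Pgam1 (73.0%) and Pfkfb4 (69.6%) lie to the right, and Gapdh (17.5%), Pdk1 (18.1%) and the X-linked Pgk1 (0.0575%) to the left.

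Pgk1 (X:106187100-106203699, mm10) is the X-linked member. By the study's design the Castaneus X is the inactive one, since the deletion leaves the C57BL/6 X unable to make Xist, so Castaneus reads of Pgk1 measure its RNA from the inactive X. Pgk1 had 0, 0, 0 and 2 Castaneus reads in replicates 1 to 4, against 952, 721, 979 and 868 C57BL/6 reads. The counts of 0 allow shares of up to 0.306% to 0.416%, taking 3 counts as the limit, and the share over all 4 replicates has an exact Clopper-Pearson 95% interval of 0.00688% to 0.205%, which covers counting error only. Its ratio was below 0.1 (quasi-likelihood test of edgeR, adjusted over 304 X genes, adjusted p = 2.83e-07). Of the X genes tested, 79.3% were below and 10.5% above that ratio, 89.8% in all. The fitted log2 ratio over that limit was -7.38, and -11.9 without replicate 4, where no Castaneus read remained and the fitted value is set by the method.

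Other genes of the pathway came from a list of 48 isozymes, complex subunits and HIF pathway genes, of which 46 were found by symbol. Of these, 30 were at 1 RPKM or more. Among 26 autosomal genes tested, 5 were higher from Castaneus and 4 from C57BL/6, and 17 were not called. The 34.6% called is near the 27.1% of all autosomal genes. Those higher from Castaneus were Epas1 (76.7% ± 1.92), Hk3 (65.0% ± 10.2), Emb (63.4% ± 0.336), Eno2 and Egln2 (54.7% ± 2.28). Those higher from C57BL/6 were Slc2a6, a glucose transporter gene with 39.2% ± 2.20 from Castaneus, and the HIF target genes Vegfa (42.8% ± 2.91), Ndrg1 (42.9% ± 0.688) and P4ha1 (44.9% ± 2.39). The X-linked Pdha1 (0.0199% ± 0.0398) and Pdk3 (0.879% ± 1.76) were below the 0.1 ratio, as Pgk1 was. The call of Slc2a6 (edgeR's adjusted p = 0.0490) was lost in 8 of 10 alternatives, that of P4ha1 in 5, Vegfa in 4, Hk3 in 3 and Egln2 in 2, the one without replicate 1 among them for each.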

How the data were processed

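Libraries were stranded total RNA with ribosomal RNA removed, per the labels' protocols. The authors deposited RPKM values of both alleles together, with no scaling total stated, and unnormalized counts per gene and allele, per the file headers. STAR 2.7.1a, featureCounts and mm10 are named in the submitters' processing notes. For allele assignment, duplicate removal and strand, no setting is given in the sources used here.

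The members and lists were chosen with earlier results of these data known. Allele counts of genes with a mean of at least 20 allelic reads and 1 RPKM, autosomal and X together, were fitted in R 4.3.3. The fit used the quasi-likelihood method of edgeR 4.0.16, with a replicate block and the autosomal total of each allele as library size. On simulated data it called 68.4% of autosomal genes set to a 2-fold ratio and 42.0% of those set to 1.5-fold. Each simulation changed 200 genes, with a mean of 10224 tested, and drew counts independently. In the real data 27.1% of the genes were called and reads were clumped, so these rates may not hold there. Castaneus over C57BL/6 was tested against 1 on autosomes and against 0.1 on the X, two-sided, with separate Benjamini-Hochberg adjustment. DESeq2 1.42.0 was an alternative. All members are reported, with the leading gene of each step, called members and Pgk1 in full, and genes of the wider list where they were called or led a step. Such wider genes were at most 12, by highest RPKM, and levels of Bsg and of further HIF targets are given besides. Positions and exon overlaps came from GENCODE M21 (mm10), and near copies from blastn 2.17.0. Exact tests used scipy 1.17.1 under Python 3.11.15. The labels call the samples biological replicates without naming animals, so p-values measure the spread between these samples.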

Additional observations from a re-analysis of the deposited data

Results flagged for a closer look

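Of 63 sets of 4 values examined for a sample far from the other three, 31 Castaneus shares and 32 RPKM levels, 2 stood out, where chance gives about 1 in 20. The Castaneus share of Pgk1 was 0.230% in replicate 4, from 2 reads, and 0 in the other replicates. With 0 in all other replicates any read is flagged, so the rate of 1 in 20 does not hold for Pgk1. Eno3 had 4.77 RPKM in replicate 3, against 5.11 to 5.14 RPKM in the other replicates.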

How the results depend on the processing

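Leaving out 1 replicate at a time gave 7 to 12 called autosomal members, with 4 to 5 higher from Castaneus and 3 to 7 from C57BL/6, and 7 and 3 came without replicate 4. Over all autosomal genes 18.5%, 28.1%, 19.9% and 18.1% were called without replicates 1, 2, 3 and 4, against 27.1% with all. No pairing between groups applies, since there is 1 group. Under the other 6 alternatives (no replicate block, TMM factors, DESeq2, no RPKM minimum, minimum of 10 or 100 allelic reads) the count was 10 to 12. The calls of 7 members, Aldoc, Eno1, Gapdh, Pdk1, Pfkfb4, Pfkp and Pgam1, held in all 10 alternatives, and no called member changed direction. Without the replicate block, which joins both alleles of 1 sample, 10 members were called, with Pkm lost. Pgk1 stayed below the 0.1 ratio in 12 of 12 alternatives, null ratios of 0.05 and 0.2 included. The leading gene stayed the same at 10 of 10 steps with medians, with a pseudocount of 1 and without any 1 replicate, and at 7 of 10 when isozymes outside the list were added. With those isozymes Eno1 took 35.5%, Pdk1 30.1% and Egln1 27.9% of their steps. A limit of 1 RPKM in every replicate kept 28 members and one of 5 RPKM kept 24. In alternatives chosen after seeing the data, 13 of 15 enzymes were highest in replicate 1 over the replicate median and 11 on the TPM scale. All genes were not counted on these scales. Clumped reads limit the precision of shares of thinly read members.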
